A study of Homo sapiens with 12 samples.

Results

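This report describes 8 genes that the microRNA literature lists as direct targets of the miR-30 family: SNAI1, VIM, TWF1, RUNX2, PPP3CA, SOCS1, NT5E and GALNT7. They were taken by gene symbol from the array's annotation, which gives them 27 of the 54613 probe sets that are not controls, a probe set being a group of short probes read as 1 value. Every probe set of each gene was kept, and 20 of the 27, covering all 8 genes, were bright enough to be tested. The question was whether their RNA fell when cells received miR-30.

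The cells were H929, an established human cell line derived from multiple myeloma, in which malignant plasma cells grow in the bone marrow. There were 12 arrays, 3 in each of 4 groups. The infected arm compared a hairpin directed at BCL9 (shBCL9) with a control hairpin directed at GFP (shGFP), and GFP-positive H929 cells were taken from both by flow cytometry. In the transfected arm, H929 cells received cel-miR-67, a worm microRNA used as control, or hsa-miR-30a/b/c/d/e. The labels do not say whether the miR-30 members were given together, at which amount or for how long, nor how many hairpins were used. No label says that replicates were separate cultures, so every p-value below reflects the spread between 3 arrays per group, and that spread may be technical.

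A microRNA guides Argonaute proteins to messenger RNAs, mostly through pairing of its seed, the short stretch near its 5′ end, with sites in the 3′ untranslated region. The paired messenger is translated less and is often degraded faster, so a direct target can fall in RNA, in protein or in both, and the arrays read RNA only. The miR-30 family is known for restraining the epithelial-mesenchymal transition and bone differentiation, and of the 8 genes SNAI1, VIM, TWF1 and RUNX2 reflect that history. SNAI1 encodes a repressor of E-cadherin, VIM the intermediate filament protein vimentin, and TWF1 the actin-binding protein twinfilin-1. RUNX2 encodes the master transcription factor of bone-forming cells. PPP3CA encodes the catalytic alpha subunit of calcineurin, the phosphatase that activates NFAT, and SOCS1 an inhibitor of JAK-STAT cytokine signalling. NT5E encodes CD73, the surface enzyme that makes adenosine from AMP, and GALNT7 a transferase of mucin-type O-glycosylation.

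The microRNA sequences are shown because the seed is what a direct target would pair with. The title of the series names the 5p arm. The mature 5p sequences in RefSeq (GRCh38.p14) are printed 5′ to 3′, with the seed, bases 2 to 8, in capitals, for miR-30a, miR-30c and miR-30e. Those of miR-30b and miR-30d are named only, and the statements on sequence cover the 3 printed.
hsa-miR-30a-5p: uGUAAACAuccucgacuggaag
hsa-miR-30c-5p: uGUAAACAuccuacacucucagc
hsa-miR-30e-5p: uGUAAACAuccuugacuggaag
They lie at chr6:71403595-71403616 on the minus strand (MIR30A), at chr1:40757300-40757322 on the plus strand (MIR30C1) with an identical copy at chr6:71377003-71377025 on the minus strand (MIR30C2), and at chr1:40754371-40754392 on the plus strand (MIR30E). The seed GUAAACA was the same in all of them, and the first 12 bases were identical. Over the first 22 bases, miR-30e-5p differed from miR-30a-5p at 1 position and miR-30c-5p at 5. Any messenger that pairs with the seed of 1 of these therefore carries the same 7 letters, UGUUUAC, for all of them. Sites in the untranslated regions of the 8 genes were not analysed here.

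The arrays agreed closely within groups, with r = 0.997 to 0.998 across probe sets. All 10 plasma cell markers examined, SDC1 and CD38 among them, read above the filter level in every group. Of the stromal markers, which matter here because SNAI1, VIM, NT5E and RUNX2 are also expressed by stromal cells, COL3A1 and LUM read above it in no array, and 5 of 8 had a probe set that was tested. The summed intensity of the 8 stromal markers ran from 460 to 481 in shGFP, 489 to 529 in shBCL9, 774 to 803 in cel-miR-67 and 630 to 734 in miR-30, against 53633 to 77914 for the plasma cell markers over all arrays. The part of stromal RNA in the results below was not tested. BCL9 itself measured 7.88 ± 0.01 in shGFP, 7.73 ± 0.12 in shBCL9, 7.82 ± 0.04 in cel-miR-67 and 7.96 ± 0.11 in miR-30 (SD, n = 3 each). It was called in neither arm (limma adjusted p = 0.107 and 0.338).

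The 27 probe sets differed in what they could show. A probe set was tested when it exceeded the 40th percentile of its array, a log2 level of 4.86 to 4.95, in at least 3 of the 12 arrays. PPP3CA (3 probe sets), GALNT7 (2) and VIM (2) were read above that level in every array by each of theirs. SNAI1 had a single probe set that passed in 11 of 12 arrays with group means of 4.95 to 5.24, so a fall of SNAI1 RNA would have had little room to appear. NT5E passed with all 4 of its probe sets. RUNX2 passed with 3 of 6, SOCS1 with 2 of 4 and TWF1 with 3 of 5, and the remaining 7 probe sets stayed under the level in 10 or more arrays. The levels of different probe sets depend on their probes and were not compared with each other.

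**Figure D1:**
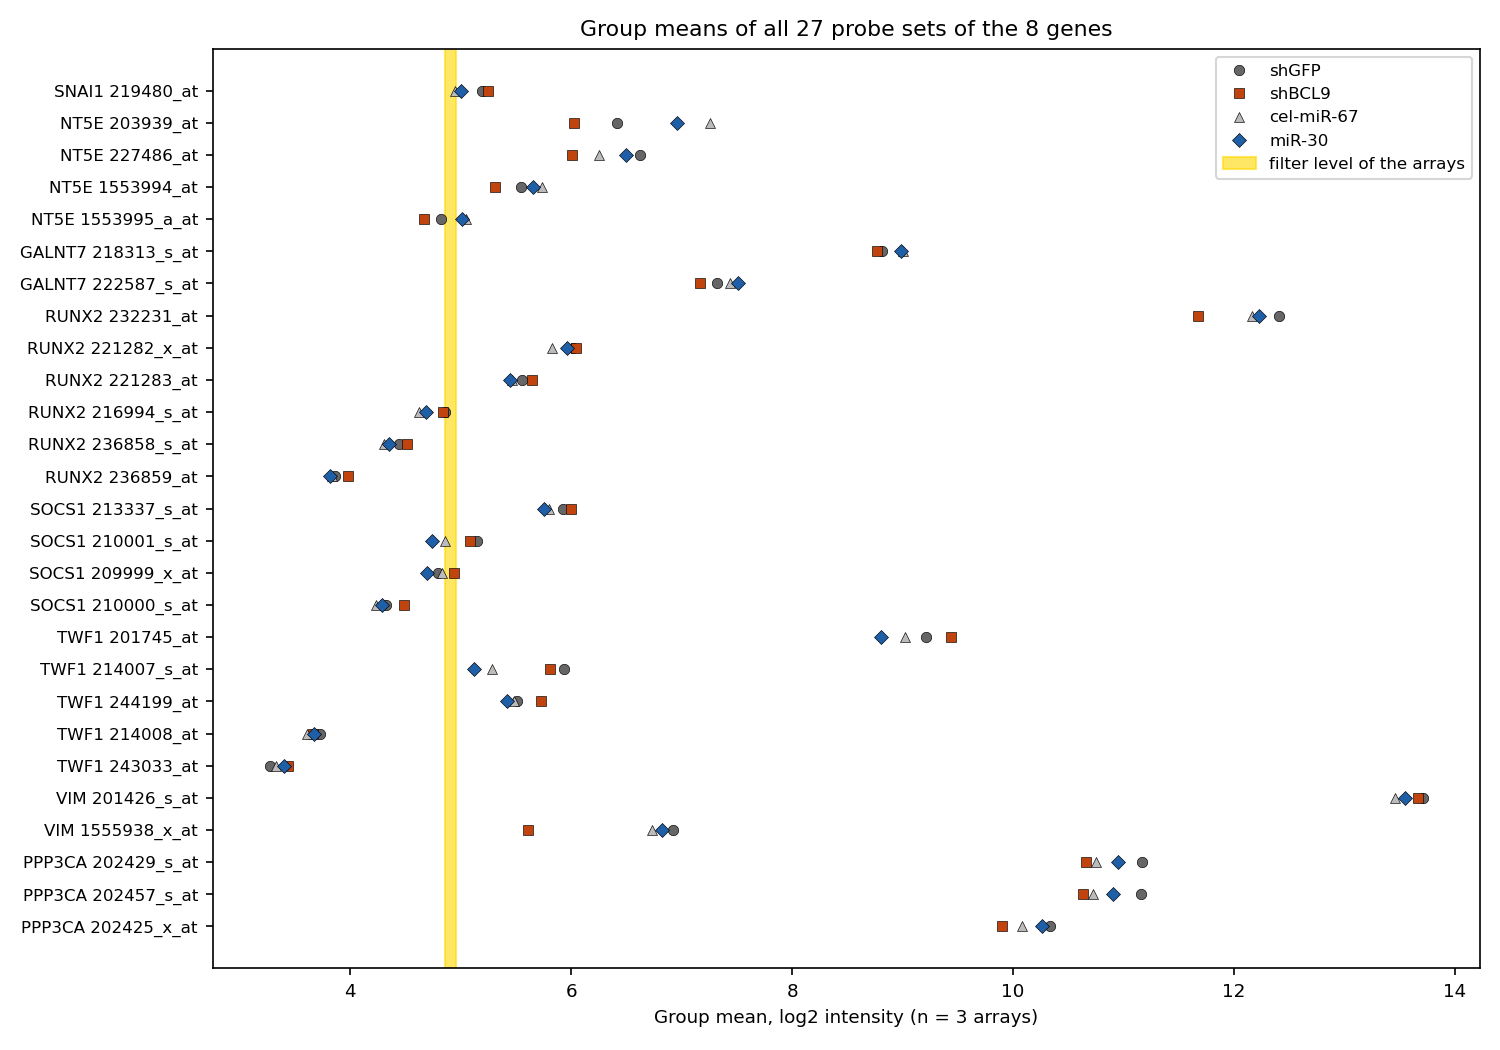
Mean log2 intensity (x axis, n = 3 arrays) of each of the 27 probe sets (y axis) in the 4 groups, with the yellow band marking the filter level of 4.86 to 4.95. The 7 probe sets that were not tested sit at or left of the band, and the only SNAI1 probe set sits at or just right of its right edge.

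No probe set of the 8 genes passed the test for a fall in the arrays labelled miR-30. In limma, 0 of their 20 tested probe sets had an adjusted p under 0.05 in either direction, where 2.67% of all 34381 tested probe sets did: 1.22% were called lower and 1.45% higher. At an unadjusted p under 0.05, 2 of the 20 were lower, 1 each of NT5E and TWF1, and 4 were higher, all 3 of PPP3CA and another of NT5E. The changes lay evenly around 0, with 10 probe sets below and 10 above, a median of 0.02 on the log2 scale and 0.05 over all 27, beside -0.00662 for all tested probe sets. The 3 miR-30 arrays lay below all 3 controls in 3 of the 20 (background 13.1%) and above all 3 in 6 (background 9.84%). The arm as a whole held 917 calls, and leaving out any single array of it left 330 to 545. Changes in this arm were small over the whole array, where 2 called probe sets changed at least 2-fold. The 18S rRNA control read 12.50 ± 0.05 in cel-miR-67 and 12.64 ± 0.04 in miR-30 (SD, n = 3 each) without overlap, and with it as a covariate 12 probe sets were called in all, 0 of them of the 8 genes.

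**Figure D2:**
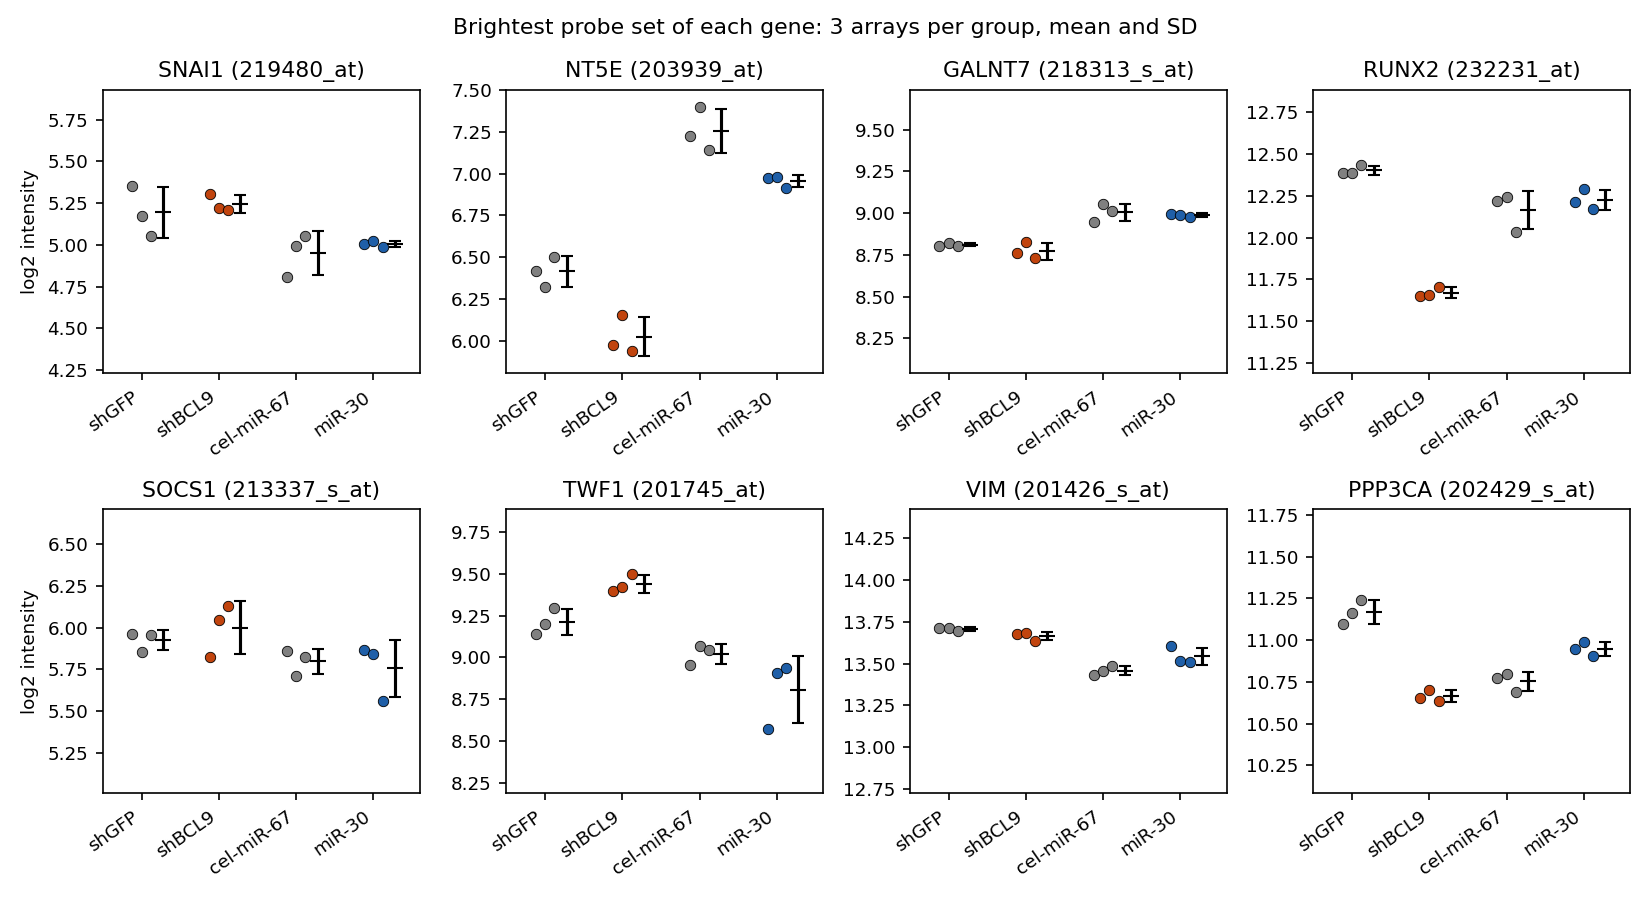
Log2 intensity (y axis) of the brightest probe set of each gene in the 3 arrays of each group (points) with the mean and SD (bars), on axes of equal span. In NT5E, RUNX2 and PPP3CA the shBCL9 arrays stand below shGFP, and the largest miR-30 difference is the -0.30 of NT5E.

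Neither cytoskeletal gene passed the test with miR-30, and their readings lay on opposite sides of the controls. At its brightest probe set (201745_at) TWF1 read 8.96, 9.07 and 9.04 in the cel-miR-67 arrays and 8.57, 8.91 and 8.94 in the miR-30 arrays. All 3 treated arrays were below the controls, a difference of -0.22 ± 0.09 (SE) or -14%, which did not pass the test (limma adjusted p = 0.221). The other tested probe sets of TWF1 measured -0.16 and -0.06, so all 3 were below 0 and none was called. The bright VIM probe set (201426_s_at) read 13.43, 13.46 and 13.49 with cel-miR-67 and 13.60, 13.52 and 13.51 with miR-30. All 3 treated arrays were higher, by 0.08 (limma adjusted p = 0.42), and the 95% interval of -1.63% to 14.3% held almost no fall. The second VIM probe set (1555938_x_at) measured 0.09 (limma adjusted p = 0.772), with a wider 95% interval of -12.2% to 29.7%.

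The transcription factor genes did not pass the test either. SNAI1 read 4.80, 5.00 and 5.06 with cel-miR-67 and 5.00, 5.02 and 4.99 with miR-30, overlapping values close to the filter level. Its difference was 0.05 (limma adjusted p = 0.798). RUNX2 at its bright probe set (232231_at) read 12.22, 12.24 and 12.03 and 12.21, 12.29 and 12.17, which also overlapped. The difference of 0.06 had a 95% interval of -5.29% to 14.7%, at a probe set far above the filter level. The other tested RUNX2 probe sets measured 0.14 and -0.01.

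Among the signalling genes, PPP3CA measured higher at each of its probe sets, without passing the test. PPP3CA at 202429_s_at read 10.77, 10.80 and 10.69 with cel-miR-67 and 10.95, 10.99 and 10.90 with miR-30, every treated array above every control. The difference was 0.19 ± 0.06 (SE), or 14.4% (95% interval 4.99% to 24.7%), and was not called (limma adjusted p = 0.0976, from 0.0121 to 0.584 over the alternatives, of which 3 called it: the 60th percentile filter, trend and robust estimation, and the ACTB covariate). The other 2 probe sets measured 0.18 and 0.19, with the groups separated in the same way (adjusted p = 0.13 each). The 3 probe sets are assigned to 1 gene and followed each other over the 12 arrays at r = 0.876 to 0.970, so they are not independent readings. The suffix of 202425_x_at marks probes that can bind other transcripts too. SOCS1 at 213337_s_at read 5.86, 5.71 and 5.82 and 5.87, 5.84 and 5.56, with overlap. Its tested probe sets measured -0.04 and -0.12, both low in intensity and not called.

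For NT5E, the CD73 gene, the readings had opposite signs. At 203939_at NT5E read 7.22, 7.40 and 7.14 with cel-miR-67 and 6.97, 6.98 and 6.91 with miR-30, all treated arrays lower. The change of -0.30 ± 0.08 (SE), or -18.7%, was the lowest of the 20 and stood at percentile 1.71 of all tested probe sets, yet missed the threshold (limma adjusted p = 0.0715). At 227486_at NT5E read 6.28, 6.20 and 6.29 and 6.59, 6.51 and 6.37, all treated arrays higher, a change of 0.24 ± 0.07 (limma adjusted p = 0.116). The other NT5E probe sets measured -0.08 and -0.03. With probe sets that disagree in sign, no direction can be given for NT5E as a gene. The fall at 203939_at was called in 4 alternatives: only the brightest probe set per gene (adjusted p = 0.0463), the 60th percentile filter (0.0392), array weights (0.0359) and a variance trend with robust estimation (0.0456), within a range of 0.0359 to 0.446 over all alternatives. GALNT7 at 218313_s_at read 8.95, 9.05 and 9.01 and 9.00, 8.99 and 8.98, which overlapped. Its difference of -0.02 had a 95% interval of -8.41% to 6.78%, and its other probe set measured 0.07.

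The intervals show how large a fall in measured intensity the arrays could have missed. At probe sets near the filter level, such as that of SNAI1, they do not bound the fall of the RNA itself. The intervals are per probe set and not adjusted for the number of tests. Of the 20 intervals in the miR-30 arm, 1 reached a fall of 25%, that of NT5E at 203939_at, and 0 reached a fall of 50%. The lower bounds ran from -27.9% to 5.52%. In simulated data of this comparison, with 34381 probe sets, the same test recovered 7 of 50 changes of 0.25, 40 of 50 changes of 0.5 and 50 of 50 changes of 1 on the log2 scale. In that setting most changes of the size measured at TWF1 and NT5E were not called. The simulated data held 50 changes of each size and no others, fewer in all than the 917 calls of this arm. An adjusted p under 0.05 is harder to reach where fewer probe sets change, so these shares may understate the recovery in the arrays.

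**Figure D3:**
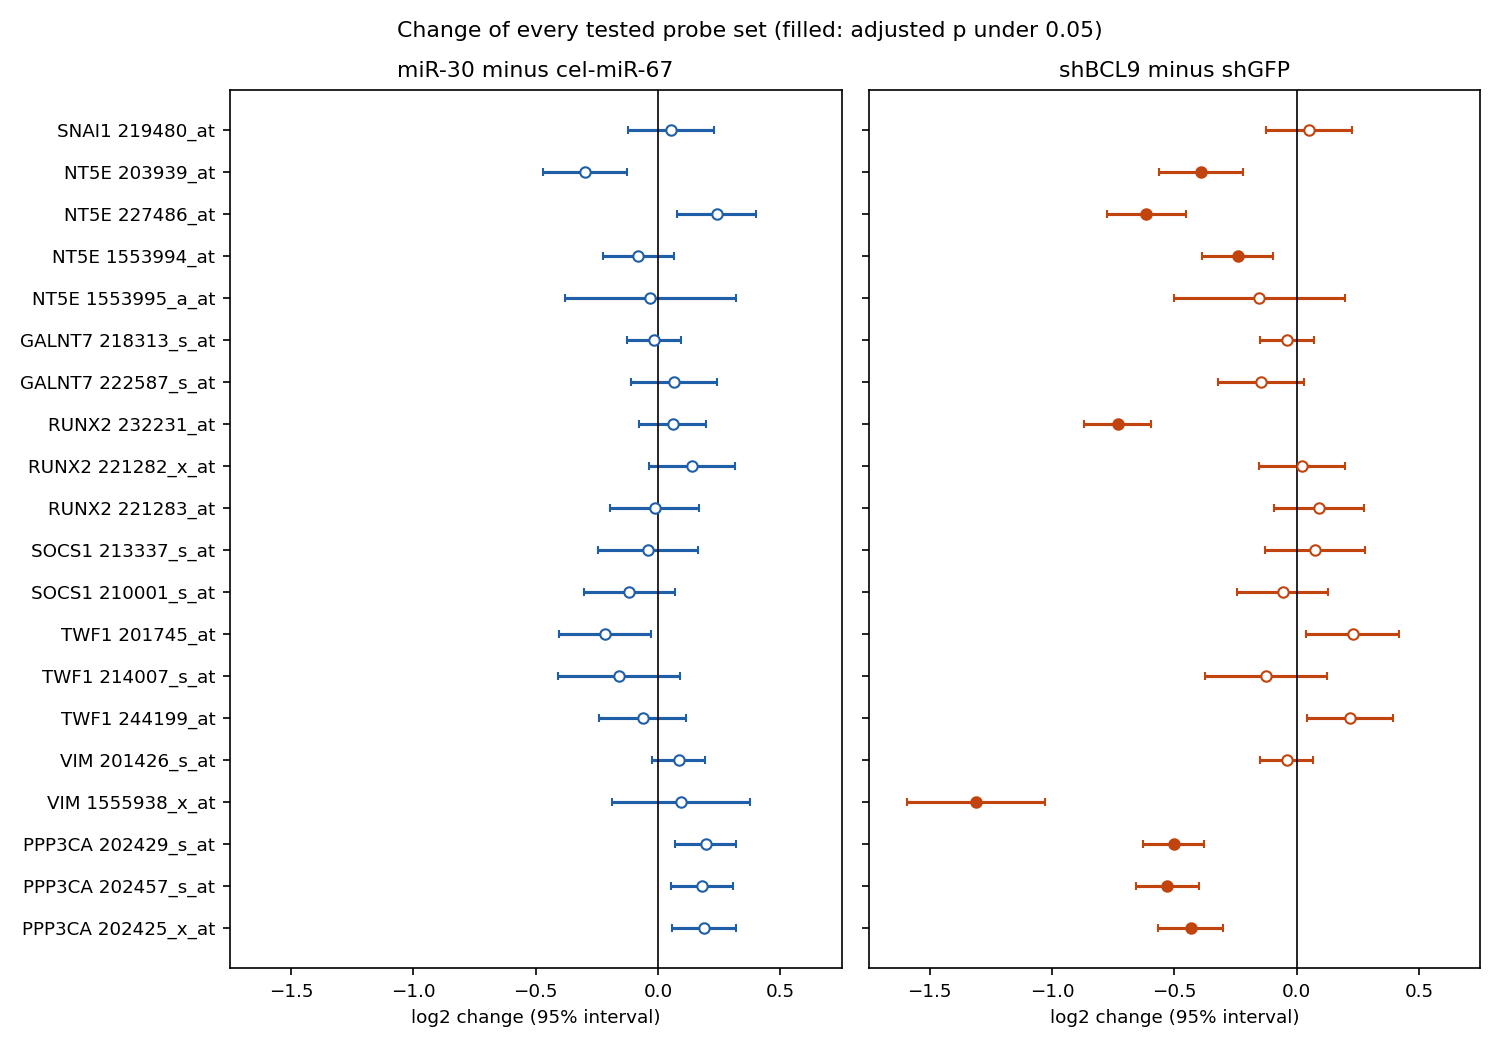
Log2 change (x axis, with 95% interval) of each of the 20 tested probe sets (y axis) for miR-30 minus cel-miR-67 (left) and shBCL9 minus shGFP (right), filled where the adjusted p was under 0.05. No point is filled on the left, and 8 are on the right, all of them lower.

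In the infected arm, 4 of the 8 genes had at least 1 probe set that fell with the BCL9 hairpin: PPP3CA, RUNX2, NT5E and VIM. Of the 20 tested probe sets 8 were called lower and 0 higher in limma, beside a background of 21.0% lower and 16.3% higher over all tested probe sets, 37.3% in either direction. PPP3CA and NT5E held most of the 8 calls. These backgrounds are per probe set, and the share of all genes with at least 1 call was not counted. With only the brightest probe set of each gene, 6121 of 14728 genes were called in either direction, and 3 of the 8 genes were lower and 1 higher. The median change was -0.14 for the 20 and -0.04 for all 27, against 0.02 for all tested probe sets. The 3 shBCL9 arrays lay below the 3 shGFP arrays in 9 of the 20 (background 25.7%) and above them in 1 (background 23.5%). Some signs of RNA quality moved with the hairpin: the ACTB 3′ to 5′ control difference was 1.67 ± 0.08 in shBCL9 and 1.30 ± 0.11 in shGFP, and the 18S rRNA control read 13.23 ± 0.02 and 12.38 ± 0.07 (SD, n = 3 each). The GAPDH 3′ to 5′ control difference did not, at 0.131 ± 0.021 in shBCL9 and 0.136 ± 0.019 in shGFP, with overlap (SD, n = 3 each). With the ACTB difference as a covariate 6 of the 8 probe sets were still called, the other 2 being NT5E at 227486_at (adjusted p = 0.0926) and 1553994_at (0.0900), and with the 18S signal 0 were (adjusted p from 0.494 to 0.958), the median standard error of the 8 rising from 0.0651 to 0.144 and 0.483. Neither the 18S signal nor the ACTB difference (1.17 to 1.36 in shGFP, 1.59 to 1.75 in shBCL9) overlapped between the groups. So neither can be told apart from the hairpin, with or without the covariate. Some genes used as markers of other cell types, read here in sorted cells of 1 line, moved with the hairpin too. The summed intensity of 6 epithelial markers was 499 to 538 in shGFP and 642 to 741 in shBCL9, with EPCAM, CDH1 and KRT19 above the filter level in no array of either group. Called higher were 2 of 4 tested epithelial, 2 of 3 B cell and 2 of 9 stromal probe sets, with 0 lower. Of the 2 tested T and NK cell and the 2 tested myeloid probe sets 0 were called. Whether the signals of markers of other cell types came from the H929 cells themselves, and their part in the result, was not tested.

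PPP3CA fell at every probe set. At 202429_s_at it read 11.10, 11.16 and 11.24 in shGFP and 10.65, 10.70 and 10.64 in shBCL9, a difference of -0.50 ± 0.06 (SE; limma adjusted p = 2.29e-05). The groups were well separated, and the other probe sets fell by 0.53 and 0.43. RUNX2 at 232231_at read 12.39, 12.39 and 12.43 in shGFP and 11.65, 11.66 and 11.71 in shBCL9, a difference of -0.73 ± 0.06 (SE; limma adjusted p = 2.34e-06). Only this RUNX2 probe set fell, and the other tested ones measured 0.02 and 0.09, not called.

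NT5E fell at 3 of 4 probe sets. At 227486_at, the one that was higher with miR-30, it read 6.67, 6.71 and 6.49 in shGFP and 6.04, 5.93 and 6.05 in shBCL9, a difference of -0.61 (limma adjusted p = 4.08e-05). At 203939_at it read 6.42, 6.32 and 6.50 and 5.97, 6.16 and 5.94, a difference of -0.39 (adjusted p = 0.00209). Both sets of shBCL9 arrays lay wholly below shGFP. At 1553994_at the difference was -0.24 (adjusted p = 0.013), and this call was lost without shGFP replicate 2 (0.0506), shGFP replicate 3 (0.0559) or shBCL9 replicate 1 (0.0544). With the ACTB covariate only 203939_at of the 3 was called. The fourth probe set measured -0.15 and was not called.

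The VIM probe sets disagreed in size. The fainter one, 1555938_x_at, read 6.85, 6.93 and 6.98 in shGFP and 5.63, 5.94 and 5.25 in shBCL9, a difference of -1.31 ± 0.13 (SE; limma adjusted p = 6.94e-06), the largest of the 20. The bright one read 13.71, 13.71 and 13.69 and 13.68, 13.68 and 13.64, a difference of -0.04 (adjusted p = 0.553). Vimentin RNA was thus called at the faint probe set alone, and over the 12 arrays the 2 probe sets correlated at r = -0.275, so they did not move together. The suffix _x_at marks probes that can bind other transcripts too.

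TWF1, GALNT7, SNAI1 and SOCS1 were not called with the hairpin. TWF1 at 201745_at read 9.14, 9.20 and 9.29 in shGFP and 9.40, 9.42 and 9.50 in shBCL9, all treated arrays higher, a difference of 0.23 ± 0.09 (SE; limma adjusted p = 0.056), which was called in 9 alternatives, including without miR-30 replicate 1 (0.0107) or replicate 3 (0.0473), whose arrays enter only the shared spread. The other tested TWF1 probe sets measured -0.13 and 0.22, the latter called without shGFP replicate 2 (0.0181) and with the replicate block (0.0362). GALNT7 at 218313_s_at read 8.81, 8.82 and 8.81 and 8.76, 8.83 and 8.73, with overlap and a difference of -0.04. Its other probe set, 222587_s_at, measured -0.15 and was called without shGFP replicate 1 (0.022) and with array weights (0.0195). SNAI1 measured 0.05, and the tested SOCS1 probe sets 0.07 and -0.06. SNAI1 read 5.35, 5.17 and 5.06 in shGFP and 5.30, 5.22 and 5.21 in shBCL9, and SOCS1 at 213337_s_at read 5.96, 5.86 and 5.96 and 5.82, 6.05 and 6.13. TWF1, SNAI1, SOCS1 and GALNT7 were therefore called in neither arm in the main fit.

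The effects of the arms were compared directly, as the difference of the miR-30 effect and the shBCL9 effect. It was called at 7 of the 20 probe sets, in 5 genes, beside 21.7% of all tested probe sets, with 6 higher (background 13.0%) and 1 lower (background 8.62%). PPP3CA differed by 0.62 to 0.71, RUNX2 at 232231_at by 0.79, NT5E at 227486_at by 0.85 and VIM at 1555938_x_at by 1.41, all with the miR-30 effect above the shBCL9 effect (limma adjusted p from 5.81e-05 to 0.000266). TWF1 at 201745_at differed the other way, by -0.45 (adjusted p = 0.0217; 0.0511 without shBCL9 replicate 3 and 0.360 with the ACTB covariate). With that covariate the difference of NT5E at 227486_at was not called either (0.0773). TWF1 was thus the only one of the 5 whose RNA stood lower under miR-30 than under the hairpin, each set against its own control. The infected and transfected cells were handled differently, so levels of the arms were not set against each other.

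A wider list of 36 other genes reported as miR-30 targets was read beside the 8. Of 34 genes on the array and 30 tested, with 84 tested probe sets, 0 probe sets were called lower and 5 higher in limma, in 3 genes, beside backgrounds of 1.22% and 1.45%. At an unadjusted p under 0.05 there were 11 probe sets, 0 of them lower. The risers were BCL2L11, which encodes the death activator BIM (0.33 at 1558143_a_at, adjusted p = 0.0231, and called at 2 more of 7 probe sets), MYBL2, a cell cycle transcription factor (0.27, adjusted p = 0.024), and CCNE2, which encodes cyclin E2 (0.41, adjusted p = 0.0289). The median change of the 84 was 0.02, with 37 below 0. With the hairpin, 37 of the 84 were called lower in 18 genes and 4 higher in 4 genes (backgrounds 21.0% and 16.3%), and their median was -0.15. IRS2, an adaptor of insulin and IGF receptors (-1.03), SMAD1, a BMP signal transducer (-0.82), the mTORC1 inhibitor gene DDIT4 (-0.81) and the metalloprotease gene ADAM19 (-0.77) fell with the lowest adjusted p. MYBL2 (0.36), PIK3CD (0.44), IGF1R at 1 faint probe set (0.28) and SMAD2 (0.21) rose, while 3 other probe sets of IGF1R and 1 other of SMAD2 (-0.21) fell.

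**Figure D4:**
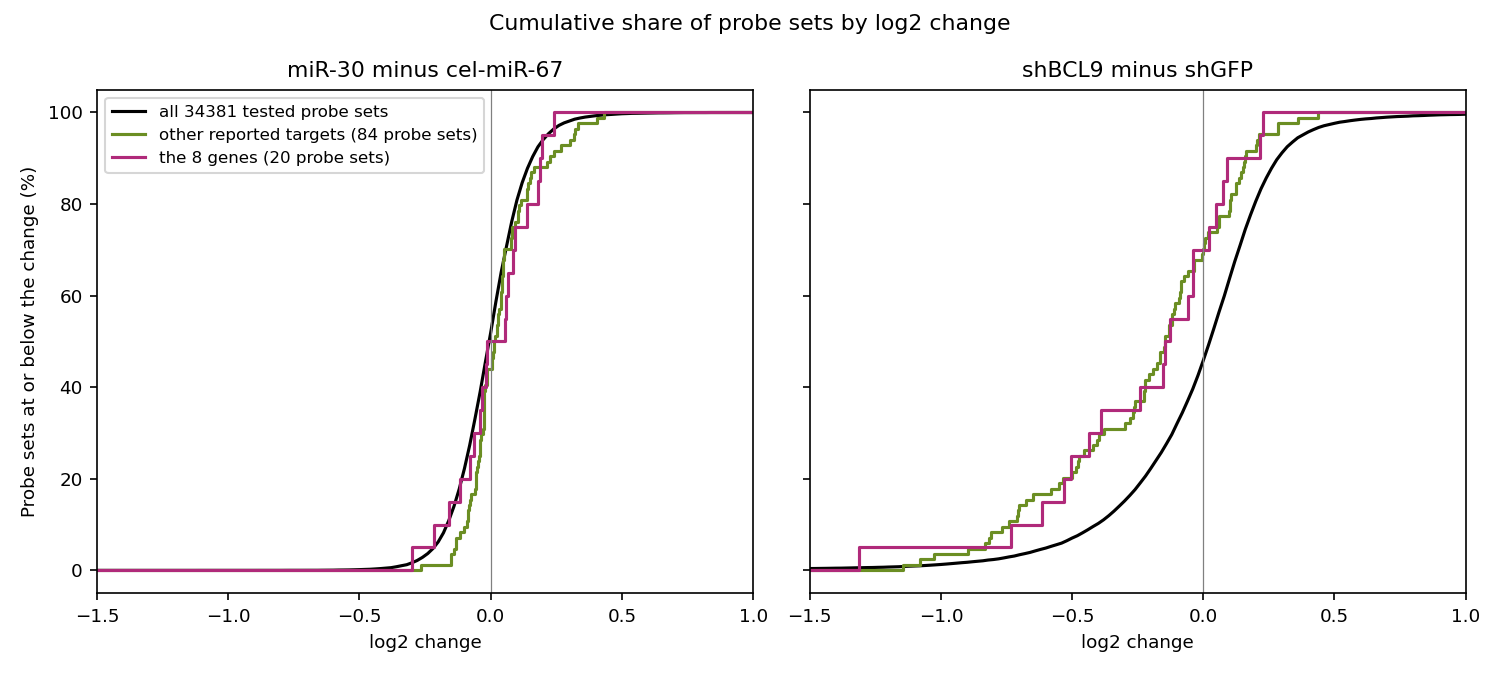
Cumulative share of probe sets (y axis, %) at or below each log2 change (x axis) for all 34381 tested probe sets (black), the 84 of the other reported targets (green) and the 20 of the 8 genes (purple), in the transfected (left) and infected (right) arms. At 0 on the left, the share is 51.9% of all probe sets, 37 of 84 and 10 of 20, and on the right the coloured curves lie above the black one there, with 59 of 84 and 14 of 20 below 0.

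The relatives of the 8 genes were read by lists of their families and pathways. Around PPP3CA, 0 of 28 tested probe sets of calcineurin and NFAT genes were called with miR-30. With the hairpin 7 fell, in NFATC2 (-0.56), PPP3R1, the regulatory subunit of calcineurin (-0.35), RCAN3 (-0.29) and RCAN1 (-0.26), and 5 rose, in NFATC1 (0.31) and PPP3CC (0.22). These are 25% and 17.9% of the list, near the backgrounds of 21.0% lower and 16.3% higher. Of 25 tested probe sets of other GALNT genes, GALNT18 rose with miR-30 (0.50, adjusted p = 0.00108) and none fell. With the hairpin 15 fell in 6 genes, led by GALNT11 (-0.99), GALNT10 (-0.64), GALNT2 (-0.65) and GALNT1 (-0.50), which is also on the list of other reported targets, and 4 rose, in GALNT14 (0.52), GALNT18 (0.36), GALNT9 (0.26) and GALNT5 (0.17), so 60% of the list was called lower and 16% higher. GALNT7, the family member reported as a target, was called in neither arm.

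In the SOCS1 pathway, the 2 calls among 35 tested probe sets with miR-30 were both of STAT3, the transducer of interleukin-6 signals that supports myeloma growth. STAT3 changed by -0.25 (adjusted p = 0.0253) and -0.30 (adjusted p = 0.027). Both calls were lower, 5.71% of the list beside a background of 1.22%. With the hairpin 13 fell in 6 genes, including SOCS3 at 1 of 3 probe sets (-1.85), SOCS5 (-0.82), SOCS4 (-0.53) and the kinase gene JAK2 (-0.65), a list share of 37.1% beside the background of 21.0%. The 1 probe set that rose was of STAT5B (0.20), of which another probe set fell (-0.23). Among SNAIL and epithelial-mesenchymal genes 0 of 20 were called with miR-30. With the hairpin 4 fell, of SNAI2 (-1.73, near background), ZEB1 (-0.36) and ITGB1 (-0.23), and 6 rose, of FN1 (0.52), CDH2 (0.41) and OCLN (0.34). The share called lower, 20%, was near the background, and 30% were called higher against 16.3%.

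Of 13 tested probe sets of other intermediate filament genes, 6 rose with the hairpin and 1 fell (46.2% and 7.69%, beside backgrounds of 16.3% and 21.0%). LMNB2 (0.63), KRT18 (0.50), LMNA (0.36) and NES (0.37) were higher and LMNB1 was lower (-0.47), while with miR-30 LMNB1 was higher (0.50, adjusted p = 0.0225). The LMNB1 call with miR-30 was 1 of the 13 (7.69% higher, background 1.45%). Of 17 actin capping and twinfilin probe sets, 0 were called with miR-30, and with the hairpin CAPG (-0.30) and DSTN (-0.21) fell and CAPZB (0.23) rose at 3 probe sets (11.8% lower and 17.6% higher in all). In the purine list, CD38, a NAD-consuming surface enzyme and plasma cell marker, fell with miR-30 (-0.29, adjusted p = 0.0204) and rose with the hairpin (0.71). ADA, which breaks down adenosine (0.57), NT5C3A (0.16) and NT5C2 (0.15) rose with the hairpin as well. With miR-30 the CD38 call was 1 of 12 tested purine probe sets (8.33% lower, background 1.22%). With the hairpin 5 of the 12 were called higher and 0 lower (41.7% higher, beside backgrounds of 16.3% higher and 21.0% lower). In the RUNX list of 5 probe sets, RUNX3 (0.29) and CBFB (0.19) rose with the hairpin and 0 were called with miR-30.

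The genes most like each member over the 12 arrays were found by Pearson's r between brightest probe sets, among 14728 genes. They describe the pattern over 4 groups of 3 arrays that share their treatments, and carry no test. RUNX2 was followed most closely by OGT (r = 0.973) and IGF1R (r = 0.971), the latter itself on the list of other reported targets. PPP3CA was followed by RNF19A (0.982) and IRAG2 (0.97), TWF1 by EI24 (0.978) and MAGEA6 (0.977), and VIM by PACRGL and ATIC (0.979 each). For NT5E the nearest were MARCHF8 and CECR2 (0.993 each), for GALNT7 ERCC5 (0.991) and PHKB (0.988). The faint genes had looser matches, SOCS1 with AMER2 (0.903) and GGT6 (0.89) and SNAI1 with IGFBP-AS1 (0.947) and LYPD8 (0.941). No member was among the nearest 2 of another.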

How the data were processed

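Gene expression was measured on arrays of 54675 probe sets in 12 samples of H929 cells. The deposited values are log2 intensities made by the authors; the submitters' processing notes name RMA, which corrects background, normalizes between arrays and summarizes each probe set, and affy, without versions; the chip definition used is not given in the sources used here. They were used without further normalization. No pair of arrays shared more than 90 exact values. Arrays give no depth, and having 3 per group limits precision.

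Gene names came from the platform's annotation table (41097 with 1 gene symbol, 1801 with several, 11777 unlisted; 41043 gene IDs matched to RefSeq GRCh38.p14), and only those with 1 symbol were named. The 62 control probe sets were left out. Probe sets above the 40th percentile of their array in at least 3 arrays (34381) were fitted in limma 3.58.1 (lmFit and eBayes, R 4.3.3) with a mean per group over all 12 arrays. Contrasts were miR-30 minus cel-miR-67, shBCL9 minus shGFP and the difference of these, called at a Benjamini-Hochberg adjusted p under 0.05 over all tested probe sets. The probe set was the unit because every probe set of each gene was asked for. The pipeline was tested on simulated data. Alternatives changed the filter, unit, normalization, samples, weights, variance model, covariates and threshold, added a replicate block, or left out each array.

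The members and lists were chosen with earlier results of these data known. All probe sets of the members are named, and of the other lists up to 4 called genes per direction by adjusted p, plus BCL9. For each member the 2 genes with the highest r over the arrays are named. Plots used matplotlib 3.10.9 under Python 3.11.15.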

Additional observations from a re-analysis of the deposited data

Results flagged for a closer look

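At 7 of the 20 tested probe sets of the 8 genes, the effect of miR-30 against cel-miR-67 differed from that of shBCL9 against shGFP by limma's test of the difference itself. The difference, miR-30 effect minus hairpin effect on the log2 scale, was 0.70, 0.71 and 0.62 at the probe sets of PPP3CA (202429_s_at, 202457_s_at and 202425_x_at), whose RNA was lower with the hairpin and not called with miR-30. It was 0.79 at 232231_at of RUNX2 and 0.85 at 227486_at of NT5E. At 1555938_x_at of VIM it was 1.41, while the bright VIM probe set gave 0.12 (limma adjusted p = 0.235). At 201745_at of TWF1 it was -0.45, with 3 of 3 arrays lower in the transfected arm and 3 of 3 higher in the infected arm. With the ACTB covariate the differences of NT5E at 227486_at (adjusted p = 0.0773) and TWF1 (0.360) were not called. Over all tested probe sets 21.7% were called in this comparison.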

How the results depend on the processing

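Members called by alternatives are counted here as genes with at least 1 called probe set. With miR-30, 0 members were lower; 1 was with the 60th percentile filter, with the brightest probe set of each gene, with array weights and with trend and robust estimation, which was NT5E each time. PPP3CA was higher, as 1 gene, with that filter, with trend and robust estimation and with the ACTB covariate, and 1 gene, also PPP3CA, was higher with the mean of probe sets. With the hairpin, 4 were lower, but 2 with only probe sets without suffix and 0 with the 18S covariate. There, 1 gene (TWF1) was higher with the 60th percentile filter, the brightest probe set, a further quantile normalization, only 6 arrays, array weights, trend and robust estimation, and the replicate block. The effects differed between arms in 5 genes, in 3 with the brightest probe set, with probe sets without suffix and with the ACTB covariate, and in 0 with the 18S covariate.

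Of all tested probe sets, 917 were called with miR-30, 445 with no filter, 1516 with the 60th percentile filter, 451 with probe sets without suffix, 373 with only 6 arrays, 1609 with array weights, 2073 with trend and robust estimation, 12 with the 18S covariate and 240 at an adjusted p of 0.01. With the hairpin 12813 were called, 6121 genes with the brightest probe set, 6294 with the mean, 7616 without suffix, 5691 with the ACTB covariate, 3 with the 18S covariate and 8085 at 0.01. For the difference of effects 7446 were called, and 3873, 4034, 4241, 3231, 21 and 3963 under the same alternatives. Testing 1 value per gene or only probe sets without suffix tests fewer features (14728 and 21497). For the other differences the cause was not tested. The split of calls into lower and higher moved with the scaling: with miR-30 it was 419 and 498, 393 and 647 after a further quantile normalization, and 395 and 331 with arrays centred on their median. With the hairpin it was 7226 and 5587, 6584 and 6682, and 7892 and 4295.

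Leaving out each of the 12 arrays gave 330 to 859 calls with miR-30, 10250 to 12899 with the hairpin and 5949 to 7249 for the difference. It gave 0 members lower or higher with miR-30, 4 to 5 lower (GALNT7 added without shGFP replicate 1) and 0 to 1 higher with the hairpin (TWF1 without shGFP replicate 2, miR-30 replicate 1 or miR-30 replicate 3), and 4 to 6 for the difference. No called value of a member probe set reversed under any alternative run. Same-numbered replicates correlated in their deviations at 0.0883 to 0.281 in the transfected arm and 0.0595 to 0.104 in the infected arm. Each treated array correlated best with the control of its own number, except miR-30 replicate 2 (0.0883, against 0.119 with another number). The main fit did not pair the arrays. With the replicate block 831, 13029 and 7642 probe sets were called. That block took same-numbered arrays of both arms as 1 set, so it did not test the pairing within each arm.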
